A study of Mus musculus with 28 samples.

Results

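The genes described here encode the collagens, the large proteoglycan and the accessory proteins of cartilage matrix. They are Col2a1, Col11a1, Col11a2, Col9a1, Col9a2, Col9a3, Acan, Hapln1, Matn1 and Matn3, 10 of the 54429 genes in the deposited count table, and they were chosen by symbol for their place in cartilage matrix. RNA was sequenced from O9-1 cells, a mouse line of the cranial neural crest, the embryonic population that forms much of the skull and face. Each of 4 cultures was kept at 21% O2 (normoxic, 4 libraries per group) or at 0.5% O2 (hypoxic, 3 libraries per group), which makes 28 libraries in 8 groups. Proliferating cultures were grown in STO-conditioned DMEM with 15% fetal calf serum, 25 ng/ml bFGF and 5 ng/ml LIF. Osteoblast cultures spent 10 days in alpha-MEM with 10% serum, 10 mM beta-glycerophosphate, 0.1 µM dexamethasone and 100 ng/ml BMP-2. Chondrocyte cultures received that osteoblast medium for 3 days and were then kept for 7 days as micromasses on matrigel-coated plastic, in alpha-MEM with 5% serum, insulin-transferrin-selenium, 0.1 µM dexamethasone, 10 ng/ml TGF-beta3 and 50 ng/ml BMP-2. Smooth muscle cultures spent 3 days in DMEM with 10% serum. All groups come from 1 cell line, and the labels do not say whether replicates were separate cultures, so the p-values measure the spread between these libraries, which may be technical.

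Cartilage owes its tensile strength to thin fibrils in which collagen II, encoded by Col2a1, is the bulk component. Collagen XI, built from the products of Col11a1, Col11a2 and Col2a1, forms the core of those fibrils and limits their width, and collagen IX, built from the products of Col9a1, Col9a2 and Col9a3, sits on their surface. Aggrecan, the product of Acan, is held on hyaluronan chains by the link protein Hapln1 and draws in the water that resists compression, and the matrilins Matn1 and Matn3 are adaptors between fibrils and proteoglycans. Sox9, with Sox5 and Sox6, is known as the main activator of these genes in chondrocytes.

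In GENCODE M21 on GRCm38, the build named mm10 in the submitters' processing notes, the fibril genes lie at chr15:97975602-98004695 (Col2a1, minus strand), chr3:114030540-114220718 (Col11a1) and chr17:34039437-34066685 (Col11a2). The collagen IX genes lie at chr1:24177610-24252684 (Col9a1), chr4:121039385-121055322 (Col9a2) and chr2:180597790-180622189 (Col9a3). Acan is at chr7:79053483-79115099, Hapln1 at chr13:89539796-89611652, Matn1 at chr4:130944385-130955475 and Matn3 at chr12:8947929-8972028, and all but Col2a1 are on the plus strand. Only Col9a3 shares exon bases with another gene, Tcfl5 on the opposite strand, over 234 bases or 6.07% of its exons, and Tcfl5 had 4 counts in the 28 libraries.

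RefSeq promoter windows (GRCm38.p6) were matched for 8 of the 10 genes, Col2a1 and Col9a3 being the other two. The 250 bases before the RefSeq start are shown for 3 of them, because the Col11a1 and Col11a2 chains enter the same collagen and their RNAs differed in level under low oxygen, and because Acan, like Col11a2, was higher in hypoxic proliferating cells. All 3 are on the plus strand, at chr3:114030290-114030539 for Col11a1, chr17:34038888-34039137 for Col11a2 and chr7:79052976-79053225 for Acan. Capitals mark the hypoxia response core, ACGTG or GCGTG on either strand.
Col11a1: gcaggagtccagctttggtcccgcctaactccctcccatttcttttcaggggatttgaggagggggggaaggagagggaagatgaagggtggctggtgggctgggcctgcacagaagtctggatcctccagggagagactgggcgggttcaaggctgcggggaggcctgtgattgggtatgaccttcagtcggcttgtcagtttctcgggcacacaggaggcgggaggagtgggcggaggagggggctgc
Col11a2: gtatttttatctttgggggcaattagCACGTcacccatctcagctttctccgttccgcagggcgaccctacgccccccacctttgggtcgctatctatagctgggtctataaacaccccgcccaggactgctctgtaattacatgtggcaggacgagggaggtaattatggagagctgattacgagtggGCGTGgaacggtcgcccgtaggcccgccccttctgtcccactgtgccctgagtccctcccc
Acan: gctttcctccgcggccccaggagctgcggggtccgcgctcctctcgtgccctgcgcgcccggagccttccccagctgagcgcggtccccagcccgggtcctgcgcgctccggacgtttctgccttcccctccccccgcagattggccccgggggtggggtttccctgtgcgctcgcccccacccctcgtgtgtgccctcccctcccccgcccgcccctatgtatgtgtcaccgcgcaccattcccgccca
Col11a2 held 2 such matches and was the only 1 of the 8 genes with a match in its window, whereas 38.6% of 32851 windows of the same length held at least 1. The SOX core, searched on both strands as the word ACAAAG, the word TCAAAG, the word ACAATG or the word TCAATG, occurred in the windows of Col9a1 and Col9a2, 2 of the 8 genes, and in 39.4% of all windows. Within the Col11a2 window the 2 matches do not overlap. A match describes letters only.

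Libraries held between 19869271 and 64693346 counts. Levels are given as CPM, the count scaled to depth, with library sizes adjusted by TMM over all 28 libraries, and a gene was called when its edgeR quasi-likelihood test gave a Benjamini-Hochberg adjusted p under 0.05 over all genes tested. All 5 chondrocyte markers (Sox9, Col2a1, Acan, Col9a1 and Comp, of which 3 are among the genes described) had counts in both chondrocyte groups, and their sum was 2817 to 8485 CPM in normoxic and 845 to 1260 CPM in hypoxic chondrocyte cultures, against 104 to 143 CPM in normoxic proliferating cells. The 6 osteoblast markers summed to 36031 to 44785 CPM in normoxic and 43317 to 50397 CPM in hypoxic chondrocyte cultures, above the 5719 to 9423 CPM of normoxic osteoblast cultures. In hypoxic against normoxic chondrocyte cultures 0 of these 6 were called higher, 2 were called lower and 4 did not pass (median log2 -0.48). Of all genes tested there, 10.4% were higher and 11.8% lower. Of 5 neural crest markers, Foxd3 had no count, Sox10 had 1 count in the 28 libraries and Pax3 was at most 0.962 CPM in any library, while Twist1 and Tfap2a had means of 92.4 and 32.9 CPM in normoxic proliferating cells. The 5 summed to 115 to 133 CPM there, to 204 to 242 CPM in normoxic and to 478 to 546 CPM in hypoxic smooth muscle cultures. Libraries of hypoxic smooth muscle cultures stood apart: mitochondrial ribosomal RNA took 11.6% to 13.3% of their counts and at most 0.0889% elsewhere, and their 5 smooth muscle markers summed to 28.5 to 42.3 CPM, against 3323 to 3757 CPM in normoxic smooth muscle cultures. Normoxic osteoblast replicate 4 also stood apart, as described below for each gene. The 8 low oxygen response markers summed to 712 to 1241 CPM in normoxic chondrocyte and 511 to 642 CPM in normoxic osteoblast cultures. In normoxic smooth muscle cultures they summed to 232 to 250 CPM, and in normoxic proliferating cells to 272 to 302 CPM. At 0.5% O2 the sums were 2551 to 2963 CPM in chondrocyte, 3482 to 4188 CPM in osteoblast and 3220 to 3467 CPM in smooth muscle cultures. Hypoxic proliferating cells had 3517 to 3756 CPM. In bulk samples, fewer cells of a type and less RNA per cell cannot be told apart.

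**Figure D1:**
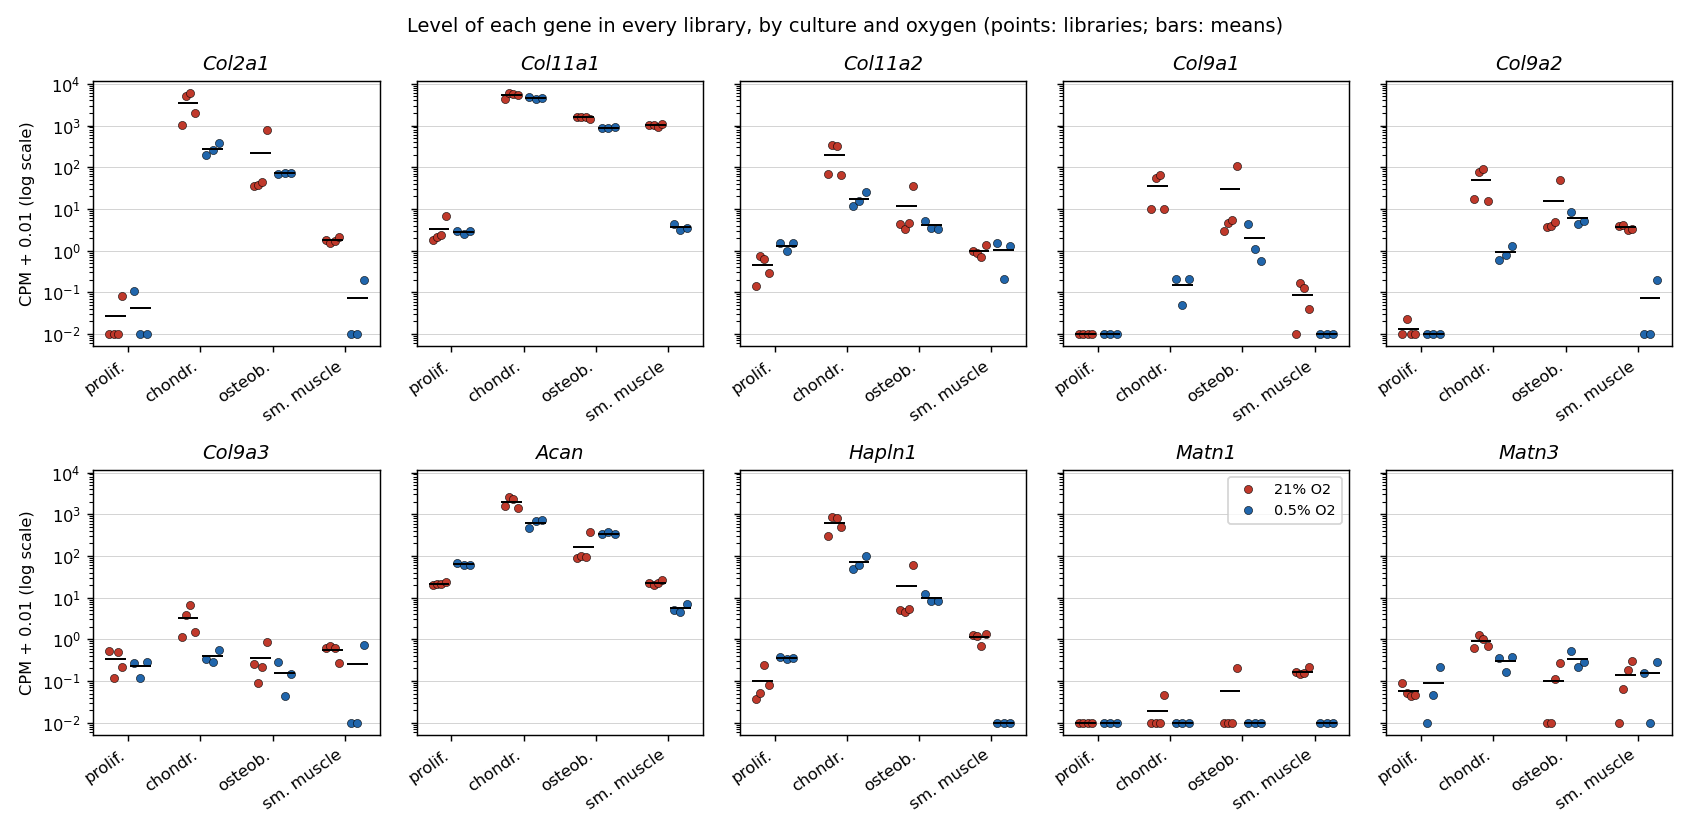
CPM plus 0.01 on a log scale for each of the 10 genes in every library, by culture, at 21% O2 (red) and 0.5% O2 (blue); points are libraries and bars are group means. Col11a1 stays within 4318 to 6012 CPM in normoxic and 4364 to 4818 CPM in hypoxic chondrocyte cultures, while most other genes are lower in the hypoxic ones, and normoxic osteoblast replicate 4 lies above the other 3 for Col2a1, Acan, Hapln1, Col9a1 and Col9a2.

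The genes together took 1.14% ± 0.368 (SD, n = 4) of all counts in normoxic chondrocyte cultures and 0.506% ± 0.0195 (SD, n = 3) in hypoxic ones. In normoxic proliferating cells the share was 0.00303% ± 0.000473 (SD, n = 4). Compared per kb of exon, the normoxic chondrocyte means were 424 CPM per kb for Col11a1, 380 for Col2a1, 263 for Acan and 105 for Hapln1. The same measure was 28.9 CPM per kb for Col11a2, 16.2 for Col9a2, 7.02 for Col9a1, 0.847 for Col9a3, 0.298 for Matn3 and 0.00455 for Matn1. Col11a1, Col2a1 and Acan thus stood at the top of this order, Col11a2 below Hapln1, and the matrilins at the bottom.

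Col2a1, the main fibril chain, was close to absent from proliferating cells, with 0, 0, 0 and 2 counts in the normoxic libraries and 3, 0 and 0 in the hypoxic ones. In normoxic chondrocyte cultures its level was 1038.5, 5107, 5877 and 2023 CPM in replicates 1 to 4, so replicates 2 and 3 were the high ones. Hypoxic chondrocyte cultures had 194, 256 and 372 CPM, all below the lowest normoxic library. Normoxic osteoblast cultures had 35.6, 38.1 and 43.6 CPM in replicates 1 to 3 and 775 CPM in replicate 4, on either side of the hypoxic osteoblast values of 70.0, 70.9 and 72.1 CPM. Smooth muscle cultures had 1.503 to 2.07 CPM at 21% O2 and 2 counts in all at 0.5% O2. In the order of group means, normoxic chondrocyte stood above hypoxic chondrocyte without overlap, hypoxic chondrocyte, normoxic osteoblast and hypoxic osteoblast followed with overlapping neighbours, normoxic smooth muscle lay below them, and both proliferating groups and hypoxic smooth muscle overlapped at the bottom.

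Col11a1, the core chain of the fibril, varied least among the normoxic chondrocyte libraries. These libraries had 4318, 6012, 5857 and 5446 CPM, a spread of 1.39-fold from lowest to highest, where Col2a1 spread 5.66-fold over the same libraries, Col11a2 5.11-fold and Acan 1.78-fold. Hypoxic chondrocyte libraries had 4818, 4364 and 4465 CPM and overlapped the normoxic ones. Osteoblast cultures had 1449.5 to 1645 CPM at 21% O2 and 876 to 904 CPM at 0.5% O2, with no overlap. In normoxic smooth muscle cultures Col11a1 was at 1007, 1007.5, 924 and 1076 CPM. Per kb of exon its mean there was 78.8 CPM, against 3.07 for Acan and 1.17 for Col9a2. Hypoxic smooth muscle libraries had 4.27, 3.19 and 3.52 CPM, near the 1.78 to 6.79 CPM of normoxic proliferating cells.

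Col11a2, the partner chain, was in another range. Normoxic chondrocyte libraries had 68.6, 333, 329 and 65.3 CPM and hypoxic ones 11.9, 15.6 and 25.3 CPM, without overlap. Osteoblast cultures had 4.37, 3.27, 4.71 and 35 CPM at 21% O2, with replicate 4 the high one, and 5.19, 3.57 and 3.34 CPM at 0.5% O2. Proliferating cells had 0.135 to 0.716 CPM at 21% O2 and 0.970 to 1.495 CPM at 0.5% O2, again without overlap.

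The collagen IX genes were expressed unevenly. In normoxic chondrocyte libraries Col9a1 was at 10.1, 55.6, 66.8 and 9.93 CPM and Col9a2 at 16.9, 78.1, 90.0 and 15.4 CPM, both high in replicates 2 and 3 and low in replicates 1 and 4. Col9a3 reached 1.11, 3.76, 6.72 and 1.46 CPM there. Hypoxic chondrocyte libraries had 6, 1 and 6 counts of Col9a1 and 0.580, 0.787 and 1.31 CPM of Col9a2, all below the normoxic ones. Normoxic osteoblast replicate 4 had 106 CPM of Col9a1, more than any chondrocyte library, against 2.90, 4.57 and 5.29 CPM in replicates 1 to 3. Hypoxic osteoblast libraries had 4.45, 1.07 and 0.563 CPM of Col9a1 and 8.24, 4.43 and 5.14 CPM of Col9a2.

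Acan, the large proteoglycan, was already measured at a steady level in proliferating cells, at 20.4, 21.6, 20.8 and 23.8 CPM at 21% O2 and 66.2, 60.1 and 61.2 CPM at 0.5% O2, without overlap. Normoxic chondrocyte libraries had 1598, 2546, 2286 and 1428.5 CPM and hypoxic ones 456, 682 and 727 CPM. Normoxic osteoblast libraries had 89.7, 98.3, 94.9 and 370.2 CPM, and the hypoxic ones, at 332, 369.5 and 333 CPM, lay above replicates 1 to 3 and below replicate 4. Smooth muscle libraries had 20.1 to 25.9 CPM at 21% O2, overlapping proliferating cells, and 4.49 to 6.95 CPM at 0.5% O2, the lowest of the 8 groups.

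Hapln1, the link protein, had 300.3, 849, 834 and 491 CPM in normoxic and 49.7, 61.5 and 97.8 CPM in hypoxic chondrocyte libraries, without overlap. Osteoblast libraries had 4.96, 4.46, 5.46 and 60.6 CPM at 21% O2 and 12.3, 8.14 and 8.27 CPM at 0.5% O2. Hypoxic proliferating cells had 0.323 to 0.358 CPM, above the 0.0269 to 0.232 CPM of normoxic ones, and hypoxic smooth muscle libraries had 0 counts.

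The matrilins were near the depth limit. Matn3 had 0.617, 1.25, 1.03 and 0.691 CPM in normoxic chondrocyte libraries, which is 19 to 31 counts, and 4 to 11 counts in hypoxic ones. Matn1 had 1 count in all 4 normoxic chondrocyte libraries and 22 counts in the normoxic smooth muscle libraries, and it passed the filter in no comparison.

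The first comparison asked how each gene differed between differentiated and proliferating cells at 21% O2, with the same 4 proliferating libraries as control for each culture. The genes that reached the filter did so mostly through the group where they are high, so these counts describe them and support nothing further. In chondrocyte cultures 9 of the 9 genes that passed the low-count filter were higher, where 37.7% of all genes tested were higher. Acan rose 95.4-fold (log2 6.58, SE 0.21, edgeR adjusted p = 1.54e-09) and Col11a1 rose by log2 10.85 (SE 0.47, edgeR adjusted p = 6.24e-08). Hapln1 rose by log2 12.99 (SE 0.65, edgeR adjusted p = 3.65e-07) and Col11a2 by 8.73 (SE 0.99, edgeR adjusted p = 0.000106). For Col2a1 the ratio to the 2 proliferating counts had a 95% exact counting interval of 79475 to 2370629, and Col9a1, with 0 proliferating counts, was at least 1935-fold higher against a floor of 3 counts over the group. The interval and floor cover counting error only. Matn3 (log2 4.22) and Col9a3 (log2 3.45) rose least. Markers of other cell types moved with these genes: the 5 smooth muscle markers summed to 1909 to 2290 CPM in normoxic chondrocyte, 3069 to 4685 CPM in normoxic osteoblast and 3323 to 3757 CPM in normoxic smooth muscle cultures, against 47.7 to 53.1 CPM in normoxic proliferating cells, with none at 0 in any of the 4 groups. Those tested were all called higher, 3 of 3, 5 of 5 and 4 of 4. The 6 osteoblast markers, at 1419 to 1613 CPM in normoxic proliferating cells, with 1 of 6 at 0, summed to more in each of the 3 cultures (3731 to 5946 CPM in smooth muscle). In normoxic chondrocyte against proliferating cells 8 of 8 low oxygen response markers were higher, at 712 to 1241 against 272 to 302 CPM. Adipocyte markers summed to 10.7 to 16.6 against 3.91 to 4.25 CPM and endothelial markers to 1.60 to 3.02 against 0.351 to 0.630 CPM. RNA that poly-A selection should deplete was at 402 to 552 against 220 to 233 CPM. Lower were macrophage markers, at 0.404 to 1.08 against 1.76 to 2.77 CPM, and neural crest markers, at 78.7 to 102 against 115 to 133 CPM. Their part was not tested.

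In normoxic osteoblast cultures 7 of 7 tested genes were higher, against 40.9% of all genes. Acan rose by log2 2.97 (SE 0.48, edgeR adjusted p = 0.000288), or by 2.13 without replicate 4, and Hapln1 by 7.92, or by 5.94 without it. Limma-voom did not call Col2a1 (adjusted p = 0.0732), and edgeR without the low-count filter did not call Col9a1 (adjusted p = 0.0908). DESeq2 gave an adjusted p for 2 of the 7, Acan and Col11a1, and called both. Col11a1, by contrast, rose by 9.04 with and 9.10 without that library. In normoxic smooth muscle cultures 5 of 7 tested genes were higher, against 40.8% of all genes: Col11a1 (log2 8.42, SE 0.41), Hapln1 (3.80, SE 0.52), Col11a2 (1.15, SE 0.42, edgeR adjusted p = 0.0209), Col2a1 and Col9a2. Acan (0.14, SE 0.09, edgeR adjusted p = 0.168) and Col9a3 (0.85, SE 0.50, edgeR adjusted p = 0.126) did not pass, though Acan did when scaled by library size alone (0.22, edgeR adjusted p = 0.0346). Col11a2 lost its call without proliferating replicate 1 (0.84, edgeR adjusted p = 0.061) or without smooth muscle replicate 4 (0.95, edgeR adjusted p = 0.0754). In a single edgeR fit over all libraries neither Col11a2 (adjusted p = 0.431) nor Hapln1 (adjusted p = 0.0605) was called.

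At 0.5% O2 the same comparisons share the hypoxic proliferating libraries as their control, and the same limit holds for their counts. Smooth muscle markers summed to 1702 to 2076 CPM in hypoxic chondrocyte and 1717 to 2006 CPM in hypoxic osteoblast cultures, against 36.3 to 43.3 CPM in hypoxic proliferating cells. In the same order, osteoblast markers were at 43317 to 50397 and 8769 to 11006 against 2355 to 2603 CPM, and adipocyte markers at 8.57 to 10.3 and 54.7 to 59.6 against 3.94 to 4.885 CPM. Macrophage markers were lower, at 0.493 to 0.866 and 1.08 to 1.89 against 5.28 to 5.41 CPM. Endothelial markers were at 5.28 to 7.62 CPM in chondrocyte cultures, against 0.682 to 1.17 CPM. The part of these markers was not tested. Chondrocyte cultures were higher for 6 of 6 tested genes (34.9% of all genes), with Acan at log2 3.31 (SE 0.20) and Col11a1 at 10.67 (SE 0.10). Osteoblast cultures were higher for 7 of 7 (36.2% of all genes), with Acan at 2.46 (SE 0.07) and Hapln1 at 4.79 (SE 0.27). A single edgeR fit over all libraries did not call Col9a2 in the chondrocyte comparison (adjusted p = 0.0694), nor Col11a2 (adjusted p = 0.167) and Col9a1 (adjusted p = 0.0948) in the osteoblast one. In smooth muscle cultures 3 genes were tested and 1 was called lower, Acan (-3.38, SE 0.15, edgeR adjusted p = 3.56e-09), where 36.2% of all genes were lower. Col11a1 was at 0.53 (SE 0.29, edgeR adjusted p = 0.121) there, and turned to -0.74 when scaled by library size alone, a scaling that moved the median of all genes from -0.07 to -1.35.

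Most of these genes were lower in chondrocyte cultures at 0.5% than at 21% O2, and Col11a1 did not pass the test. Of 9 genes tested, 8 were called lower, against 11.8% of all genes. Col9a1, Col9a3 and Matn3 passed the low-count filter through the normoxic group alone, which favours a lower hypoxic level and makes this count a description. The other 6 passed in both groups, and 5 of them were called. Col2a1 fell 12.8-fold (log2 -3.68, SE 0.76, edgeR adjusted p = 0.0221), Hapln1 8.89-fold (-3.15, SE 0.51, edgeR adjusted p = 0.00893) and Acan 3.17-fold (-1.66, SE 0.26, edgeR adjusted p = 0.00438). Col11a2 fell 11.3-fold (-3.50, SE 0.89, edgeR adjusted p = 0.0457), while Col11a1 was at -0.26 (SE 0.11, edgeR adjusted p = 0.12). Of the collagen IX genes, Col9a1 was at -7.85 (SE 1.48) and Col9a2 at -5.80 (SE 1.11), the furthest of the 9 genes, and Col9a3 was at -3.05 (SE 0.72). Matn3 was at -1.59 (SE 0.47, edgeR adjusted p = 0.03), a call lost in a single edgeR fit over all libraries (adjusted p = 0.162) and in edgeR with a replicate block (-1.67, adjusted p = 0.0719). The number called depends on each hypoxic library: without any 1 of the 3 it was 2, Acan and Hapln1, with all 9 values still below 0 and an edgeR adjusted p of 0.0558 to 0.0861 for Col2a1. Limma-voom called 4, and lost Col11a2 and the collagen IX genes (adjusted p = 0.096 to 0.348). Without the low-count filter, edgeR did not call Col11a2 (adjusted p = 0.071) or Col9a3 (adjusted p = 0.0838). Without normoxic replicate 2 or 3, Col11a2 and Matn3 did not pass (edgeR adjusted p = 0.0748 to 0.0924), and without normoxic replicate 1 Col11a1 was called lower too (-0.35, edgeR adjusted p = 0.0142), as it was when scaled by library size alone (-0.33, edgeR adjusted p = 0.0363). Sox9 was at 0.01 (SE 0.18, edgeR adjusted p = 0.986) and did not pass. Sox6 and Sox5, named here after their values were seen, were lower. Sox6 was at 1.23, 2.30, 3.02 and 0.946 CPM in normoxic and 0, 0.158 and 0.296 CPM in hypoxic libraries (-3.61, SE 0.73, edgeR adjusted p = 0.00533). Sox5 was at 16.4, 22.2, 21.9 and 23.4 CPM against 15.9, 11.8 and 10.5 CPM (-0.72, SE 0.16, edgeR adjusted p = 0.00784), and neither gene's groups overlapped. The endothelial markers, 5.28 to 7.62 against 1.60 to 3.02 CPM in sum, moved with oxygen too, with 1 of 3 at 0 in the hypoxic group. The 5 neural crest markers summed to 106 to 117 CPM in hypoxic against 78.7 to 102 CPM in normoxic libraries, with 2 of 5 at 0 in both, and the 5 adipocyte markers to 8.57 to 10.3 against 10.7 to 16.6 CPM, with 2 of 5 at 0 in both. The part of these genes and markers was not tested.

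**Figure D2:**
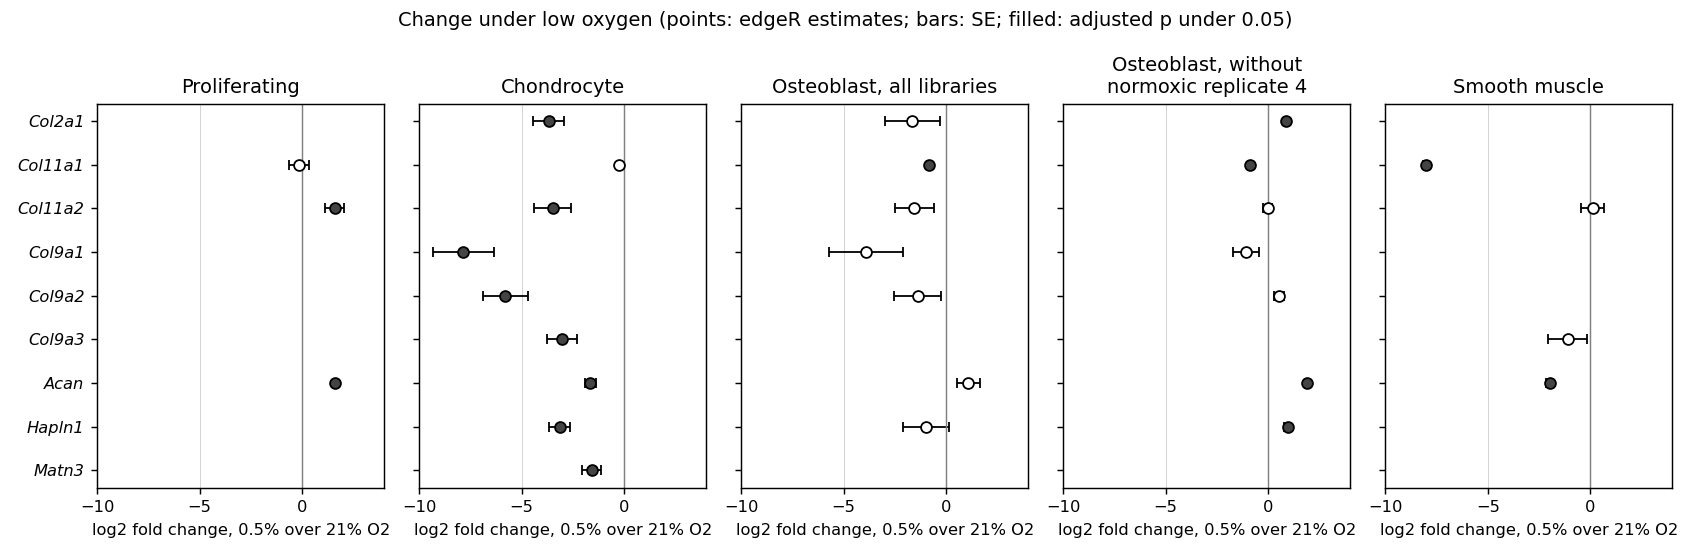
Log2 fold change of 0.5% over 21% O2 for each gene with more than 3 counts in both groups, from edgeR, with its SE as the bar; filled points passed an adjusted p of 0.05. In chondrocyte cultures the 9 points lie below 0 and 8 of them are filled, Col11a1 being the open one, and the osteoblast points for Col2a1, Col9a2 and Hapln1 change side when normoxic replicate 4 is left out.

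Ratios within a library do not rely on the scaling between libraries. The pairs were chosen with the levels known, so they are given as a description. Per kb, Col11a1 exceeded Col11a2 by 33.9, 9.73, 9.62 and 45.0-fold in normoxic chondrocyte libraries and by 219, 151 and 95.2-fold in hypoxic ones. Col2a1 per kb was 0.332, 1.17, 1.38 and 0.512 of Col11a1 at 21% O2 and 0.0555, 0.0809 and 0.115 of it at 0.5% O2. Hapln1 was 0.238, 0.422, 0.462 and 0.435 of Acan per kb at 21% O2 and 0.138, 0.114 and 0.1702 of it at 0.5% O2. Col2a1 was 0.525, 1.62, 2.08 and 1.15 of Acan at 21% O2 and 0.344, 0.303 and 0.413 of it at 0.5% O2. Within collagen IX, Col9a3 was 0.0387 to 0.0758 of Col9a2 per kb at 21% O2 and 0.281 to 0.446 of it at 0.5% O2, and Col9a2 was 0.0228 to 0.0487 of Col2a1 at 21% O2 and 0.00892 to 0.0106 of it at 0.5% O2. In each of these 6 ratios the chondrocyte groups did not overlap. An exact two-sided permutation test of 4 against 3 libraries cannot give a p below 0.0571, so that test could not pass 0.05 here and none is given.

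**Figure D3:**
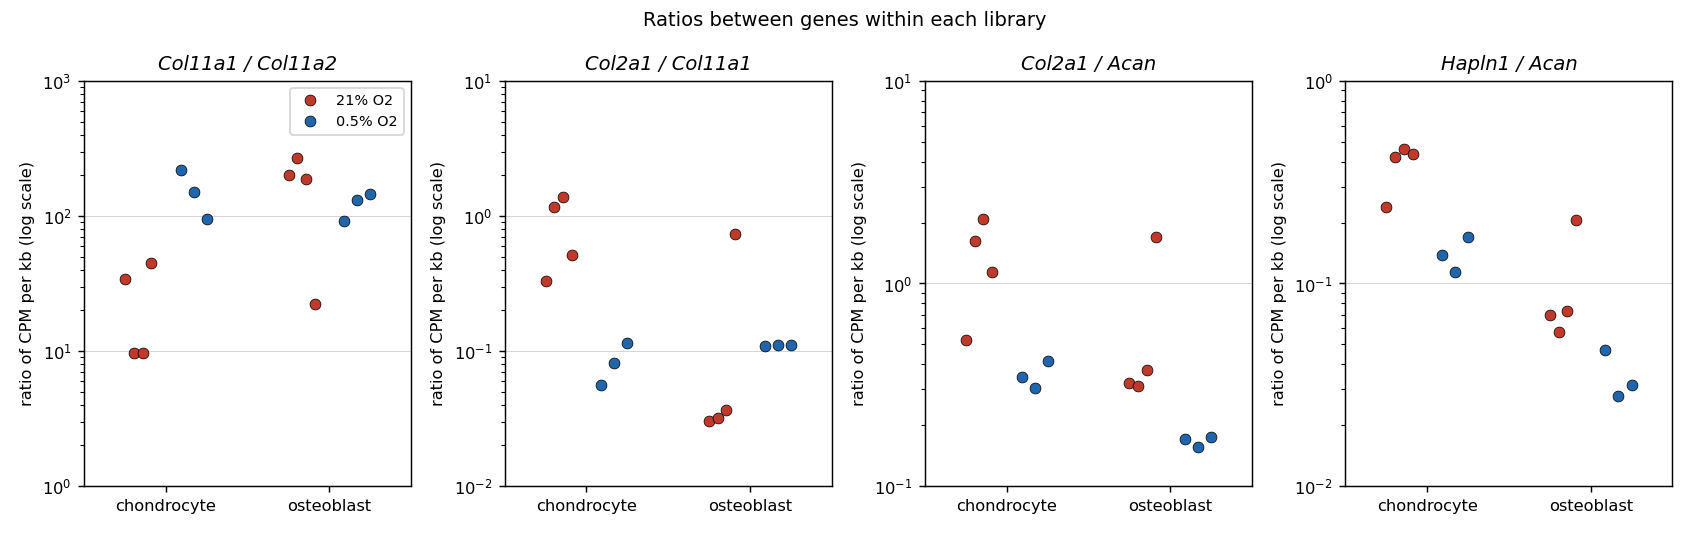
Ratio of CPM per kb of exon between pairs of genes in each library of the chondrocyte and osteoblast cultures, on a log scale, at 21% O2 (red) and 0.5% O2 (blue). Hypoxic chondrocyte libraries lie above the normoxic ones for Col11a1 over Col11a2 and below them for the other 3 ratios.

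In osteoblast cultures the calls depended on 1 library and on the fit. With all libraries 1 of 7 tested genes was called, Col11a1 (-0.84, SE 0.09, edgeR adjusted p = 5.36e-05), where 27.3% of all genes were lower, and Acan (1.07, SE 0.55, edgeR adjusted p = 0.138) and Col2a1 (-1.66, SE 1.34, edgeR adjusted p = 0.335) did not pass. With the same libraries, limma-voom called Acan higher (1.38, adjusted p = 0.0423), and a single edgeR fit over all libraries called Acan higher (1.08, adjusted p = 0.0129) and Col9a1 lower (-3.90, adjusted p = 0.029). Without normoxic replicate 4, 3 genes were higher under low oxygen: Acan (1.87, SE 0.07, edgeR adjusted p = 1.2e-10), Hapln1 (0.94, SE 0.18, edgeR adjusted p = 0.00044) and Col2a1 (0.86, SE 0.08, edgeR adjusted p = 1.12e-06). Col11a1 was lower by -0.88 (SE 0.05) in that fit, which called 32.9% of all genes higher and 32.7% lower. In replicate 4 Sox9 was at 194 CPM against 51.1 to 54.7 CPM in the other 3, Col10a1 at 9.35 against 1.64 to 1.83 CPM and Col1a1 at 9277 against 5656 to 5669 CPM. The 5 adipocyte markers summed to 54.7 to 59.6 CPM in hypoxic and 7.85 to 11.6 CPM in normoxic osteoblast cultures, with 2 of 5 at 0 in both. The 5 smooth muscle markers summed to 1717 to 2006 against 3069 to 4685 CPM, with 4 of 5 called lower. Of 5 osteoblast markers tested 3 were higher (median 2.69), where 27.0% of all genes were. Without normoxic replicate 4, 5 of 5 were higher (median 5.36), where 32.9% of all genes were. The 6 osteoblast markers summed to 8769 to 11006 against 5719 to 9423 CPM, and Col1a1 made up most of the normoxic sum. The 3 macrophage markers summed to 1.08 to 1.89 against 0.175 to 0.384 CPM. RNA that poly-A selection should deplete summed to 795 to 866 against 268 to 481 CPM, with 2 of 3 genes tested called higher. The part of these markers and of this RNA in the result was not tested.

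**Figure D4:**
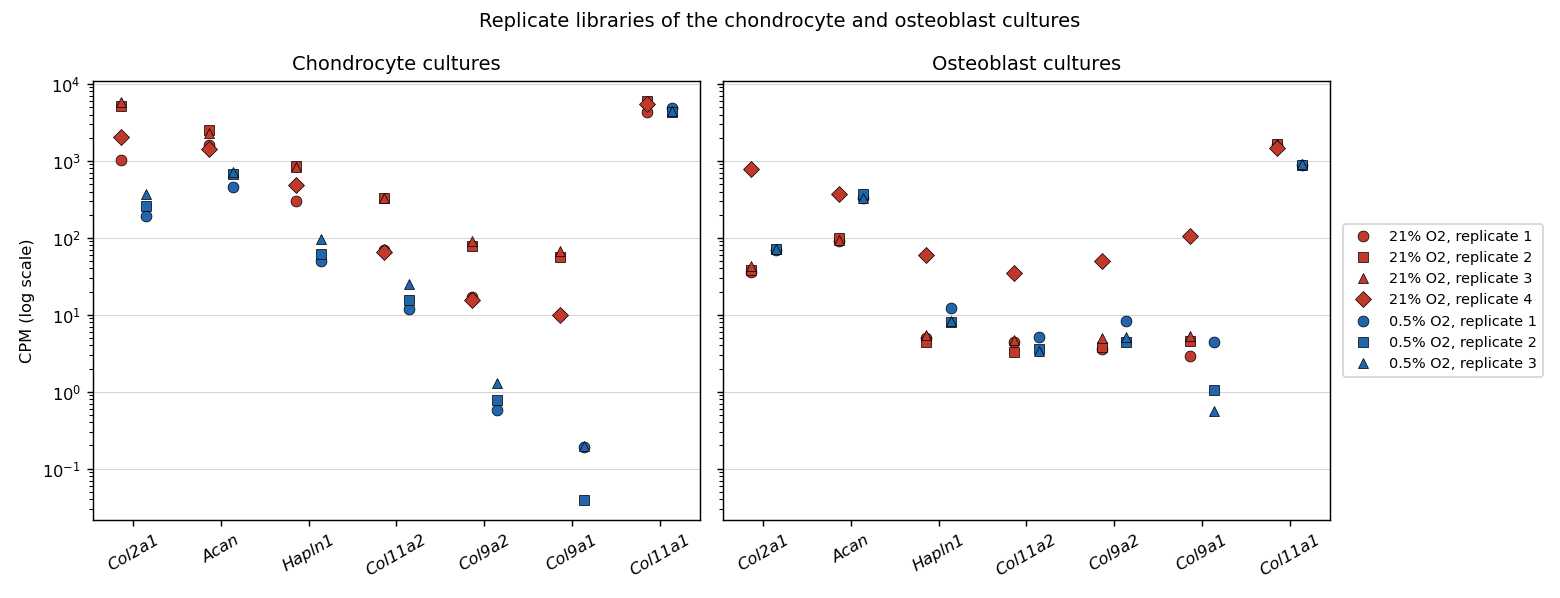
CPM on a log scale of 7 genes in each library of the chondrocyte (left) and osteoblast (right) cultures, with the symbol giving the replicate number and the colour the oxygen level. Normoxic osteoblast replicate 4 has 775 CPM of Col2a1 and 106 CPM of Col9a1, above replicates 1 to 3, and has 1449.5 CPM of Col11a1, below them.

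In proliferating cells at 0.5% O2 Acan was higher 3.00-fold (log2 1.59, SE 0.07, edgeR adjusted p = 3.22e-10) and Col11a2 2.97-fold (1.57, SE 0.45, edgeR adjusted p = 0.00672), 2 of 3 tested genes, where 33.1% of all genes were higher, Col11a2 passing the low-count filter through the hypoxic group alone. A single edgeR fit over all libraries did not call Col11a2 (1.44, adjusted p = 0.339). The 3 macrophage markers summed to 5.28 to 5.41 CPM in hypoxic and 1.76 to 2.77 CPM in normoxic proliferating cells, with 1 of 3 at 0 in the hypoxic group, and RNA that poly-A selection should deplete to 707 to 779 against 220.2 to 233 CPM. The 6 osteoblast markers summed to 2355 to 2603 CPM in hypoxic against 1419 to 1613 CPM in normoxic libraries and the 3 endothelial markers to 0.682 to 1.17 against 0.351 to 0.630 CPM. Lower under low oxygen were the sums of the 5 neural crest markers, at 96.5 to 105 against 115 to 133 CPM, and of the 5 smooth muscle markers, at 36.3 to 43.3 against 47.7 to 53.1 CPM. In the hypoxic group 2 of 6 osteoblast, 1 of 3 endothelial, 3 of 5 neural crest and 1 of 5 smooth muscle markers were at 0. Of 2 osteoblast markers tested 1 was called higher and 1 lower, and the same held for 2 smooth muscle markers tested. The sums thus do not stand for each marker. The part of these markers and of this RNA was not tested. Col11a1 was at -0.16 (SE 0.47, edgeR adjusted p = 0.788). In smooth muscle cultures 5 of 7 were lower, against 40.2% of all genes: Col11a1 (-8.02, SE 0.13), Acan (-1.99, SE 0.17), Col2a1, Col9a2 and Hapln1, the last at least 12.7-fold lower against the floor of 3 counts. Of the 7, 5 passed the low-count filter through the normoxic group alone, Col2a1, Col9a2 and Hapln1 among them, so the count is a description, and Col11a1 and Acan passed in both groups. A single edgeR fit over all libraries did not call Col2a1 (adjusted p = 0.228) or Hapln1 (adjusted p = 0.199), and limma-voom called Col9a3 lower too (-2.15, adjusted p = 0.0484). For Col2a1 the fold between the groups was 29.8, with a 95% exact counting interval of 8.16 to 247.5. Col11a2 was at 0.12 (SE 0.56, edgeR adjusted p = 0.858), a value that turned below 0, to -1.23, when scaled by library size alone. The hypoxic smooth muscle libraries hold the high ribosomal share given above and summed macrophage markers of 33.0 to 36.4 CPM, against 0.437 to 0.827 CPM in normoxic ones, and the part of either was not tested. Their 6 osteoblast markers summed to 349.5 to 404 CPM, against 3731 to 5946 CPM, and the 3 endothelial markers to 2.19 to 2.78 against 0.875 to 1.13 CPM, with 3 of 6 and 0 of 3 at 0 in the hypoxic group, and their part was not tested either.

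Whether the oxygen response differs between cultures was tested with interaction terms. Low oxygen response markers differed too. Their median change with oxygen was 1.73 in chondrocyte cultures and 4.58 in proliferating cells. In the interaction of these cultures 8 of 8 were lower (median -2.71), where 21.9% of all genes were. Against osteoblast cultures the chondrocyte response was lower for 7 of 8 (median -2.08), where 20.1% of all genes were. The part of these markers was not tested. Against proliferating cells, the response of chondrocyte cultures was lower for 3 of 9 genes (21.9% of all genes): Acan (-3.24, SE 0.29, edgeR adjusted p = 2.87e-06), Hapln1 (-5.30, SE 1.80, edgeR adjusted p = 0.0345) and Col11a2 (-4.98, SE 1.56, edgeR adjusted p = 0.0245). Hapln1 lost its call in a single edgeR fit over all libraries (adjusted p = 0.149) and on leaving out 8 of the 14 libraries in turn (edgeR adjusted p up to 0.086), each hypoxic proliferating one among them, and Col11a2 without hypoxic proliferating replicate 1 or 3 (edgeR adjusted p = 0.0717 and 0.0702). Limma-voom called neither Hapln1 (adjusted p = 0.264) nor Col11a2 (adjusted p = 0.314), and edgeR without the low-count filter did not call Hapln1 (adjusted p = 0.0571). DESeq2 called Col2a1, Col9a1, Col9a2 and Col9a3 lower besides these 3. Col11a1 was at -0.15 (SE 0.51, edgeR adjusted p = 0.852), but at -0.71 and called without normoxic proliferating replicate 4 (edgeR adjusted p = 0.00568). For osteoblast cultures edgeR called 0 of 8 (28.9% of all genes higher, 25.3% lower), 1 gene had an unadjusted p under 0.05, DESeq2 called 0 of the 3 for which it gave an adjusted p, and limma-voom called 1, Col11a1 (-0.96, adjusted p = 0.0262). Without normoxic proliferating replicate 4 Col11a1 was called (-1.27, edgeR adjusted p = 1.62e-06), and without normoxic osteoblast replicate 4 Acan was (0.33, edgeR adjusted p = 0.004). Col11a2, at -3.07 (edgeR adjusted p = 0.053), was called on leaving out any 1 of the 4 normoxic osteoblast libraries, at -3.34 to -3.38 without replicate 1, 2 or 3 and at -1.53 without replicate 4 (edgeR adjusted p = 0.0102 to 0.0368). For smooth muscle cultures 4 of 7 were lower (35.5% of all genes), Acan by -3.53 (SE 0.17) and Col11a1 by -7.89 (SE 0.62) besides Col2a1 and Hapln1, whose groups of 0 to 3 counts make the estimate depend on the prior count; Col2a1 lost its call without hypoxic proliferating replicate 1 (edgeR adjusted p = 0.886), and both lost it in the single fit (edgeR adjusted p = 0.631 and 0.165). In the tested pairs of these groups Col2a1, Col9a2 and Hapln1 passed the low-count filter through the normoxic smooth muscle group alone, so this count is a description. In this smooth muscle interaction Col9a2 was called lower by DESeq2 (adjusted p = 0.00536) and limma-voom (adjusted p = 0.000171), and Col11a2 by limma-voom (adjusted p = 0.0393). The chondrocyte response was below the osteoblast response for Acan (-2.74, SE 0.67, edgeR adjusted p = 0.00795) and Matn3 (-3.34, edgeR adjusted p = 0.0162), 2 of 9 where 20.1% of all genes were lower, and above it for Col11a1 (0.59, SE 0.15, edgeR adjusted p = 0.0056), 1 of 9 where 17.7% were higher, a call lost in the single fit (edgeR adjusted p = 0.137). In the tested pairs of these groups Matn3 passed the low-count filter through the normoxic chondrocyte group alone, so its call is a description. Col9a2 was called lower by DESeq2 (-4.44, adjusted p = 0.00405) and in the single edgeR fit (-4.40, adjusted p = 0.00975), and Hapln1 by limma-voom (-3.03, adjusted p = 0.0445). Without normoxic osteoblast replicate 4 these became 7 lower (23.7% of all genes) and 1 higher (20.9%), with Acan at -3.51 (SE 0.31) and Matn3 at -4.61 (SE 1.03), and without hypoxic osteoblast replicate 1 Matn3 lost its call (edgeR adjusted p = 0.0541).

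Chondrocyte cultures were compared directly with osteoblast and smooth muscle cultures, which differ from them in medium, growth format and schedule. Genes that passed the low-count filter through 1 group alone make these counts descriptions too: 2 of 9 against osteoblast and 3 of 9 against smooth muscle cultures at 21% O2, and 1 of 7 against osteoblast cultures at 0.5% O2. At 21% O2, 7 of 9 genes were higher in chondrocyte cultures (28.6% of all genes), among them Hapln1 (5.00, SE 1.04, edgeR adjusted p = 0.00374) and Col11a2 (4.03, edgeR adjusted p = 0.00937), while Col9a1 (0.22, SE 1.24, edgeR adjusted p = 0.892) and Col9a2 (1.66, SE 1.04, edgeR adjusted p = 0.202) did not pass, though a single edgeR fit over all libraries called Col9a2 (1.69, adjusted p = 0.0482). Without osteoblast replicate 4, 9 of 9 were higher (32.9% of all genes), Hapln1 by 6.94 (SE 0.55), Col2a1 by 6.46 (SE 0.85), Col11a2 by 5.56, Col9a2 by 3.57 (SE 0.93) and Col9a1 by 3.03 (SE 0.98). Col2a1, at 3.95 (SE 1.27, edgeR adjusted p = 0.0276), lost its call without chondrocyte replicate 3 or without osteoblast replicate 2 or 3 (edgeR adjusted p = 0.0534 to 0.0563) and without the low-count filter (edgeR adjusted p = 0.0805). Of the markers, 5 of 6 osteoblast and 7 of 8 low oxygen response ones were higher than in osteoblast cultures, where 28.6% of all genes were. Osteoblast markers summed to 36031 to 44785 against 5719 to 9423 CPM. Low oxygen response markers summed to 712 to 1241 against 511 to 642 CPM. Smooth muscle markers were lower in sum, at 1909 to 2290 against 3069 to 4685 CPM. So were neural crest markers, at 78.7 to 102 against 180 to 229 CPM. Against smooth muscle cultures 9 of 9 genes were higher (33.0% of all genes), Col11a1 by 2.39 (SE 0.10) and Acan by 6.38 (SE 0.22), and limma-voom did not call Col9a1 (8.54, adjusted p = 0.132). At 0.5% O2, 5 of 7 genes were higher in chondrocyte than in osteoblast cultures (28.6% of all genes), Acan by 0.86 (SE 0.15, edgeR adjusted p = 0.000603) and Col2a1 by 1.96 (SE 0.22, edgeR adjusted p = 0.000138), and Col9a1 (-3.72, SE 0.86) and Col9a2 (-2.71, SE 0.34) were lower (29.0% of all genes). In a single edgeR fit over all libraries the folds stayed close but Acan (0.85, adjusted p = 0.0673), Col2a1 (1.95, adjusted p = 0.0672) and Col9a1 (-3.70, adjusted p = 0.209) were not called.

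Other genes of cartilage formation were described by lists. List genes, too, can pass the low-count filter through 1 group alone, which favours a difference, so their counts are descriptions. Among 18 other cartilage matrix genes, 9 were tested in chondrocyte cultures under low oxygen, 7 lower and 1 higher, with a median of -1.99, against -0.01 over all genes. In that comparison, 11.8% of all genes tested were lower and 10.4% higher, which is the background for the counts of each list in it. Col27a1, a fibrillar collagen of cartilage, fell by 1.99 (SE 0.27) and Matn2 by 0.99 (SE 0.14), and Fmod, the small proteoglycan fibromodulin, rose by 0.40 (SE 0.09). Of 10 chondrogenic regulators 4 were lower and 6 did not pass (median -0.14). Of 8 growth plate hypertrophy genes 7 were tested and 5 were lower (median -1.51), among them Col10a1, the collagen of hypertrophic chondrocytes (-1.67, SE 0.39, edgeR adjusted p = 0.0303). Of 17 collagen folding and crosslinking genes 16 were tested, with 7 higher and 2 lower (median 0.12), and P4ha1, a prolyl hydroxylase subunit, rose by 0.97 (SE 0.07). Of 12 genes of aggrecan chain synthesis and sulphation 6 were lower and 2 higher (median -0.27). Of 5 aggrecanases 1 was higher and 4 did not pass (median 0.72). In normoxic chondrocyte against proliferating cells, by contrast, 10 of 10 regulators and 16 of 16 tested folding genes were higher (medians 1.89 and 2.65), where 37.7% of all genes were. In proliferating cells under low oxygen 4 of 4 tested aggrecanases were higher (median 1.13), against 33.1% of all genes, Adamts1 by 1.43, and Sox9 rose by 0.72 (edgeR adjusted p = 0.000891). Hypoxic osteoblast cultures were higher for 4 of 7 tested hypertrophy genes (median 2.69), against 27.0% of all genes, with Col10a1 at 3.18 (edgeR adjusted p = 0.00433). Without normoxic osteoblast replicate 4 these became 7 of 7 (median 3.45), against 32.9% of all genes, with Col10a1 at 4.25 (SE 0.11). Hypoxic smooth muscle cultures were lower for 7 of 8 tested regulators (median -1.88) and 5 of 5 aggrecanases (median -3.29), where 40.2% of all genes were lower.

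Over the 28 libraries, the genes whose log2 levels followed Col2a1 most closely, among 13388 compared, were Dlx5 (Pearson r = 0.986), Gprin3 (0.976), Tacc1 (0.971), Pth1r (0.968) and Cacna1h (0.967). For Acan they were Tnfrsf1b (0.974), Nmnat2 (0.964), Amacr (0.960), Kcnh1 (0.957) and Fads3 (0.955). These are descriptions over libraries that share 8 groups.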

How the data were processed

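Polyadenylated RNA of O9-1 cells was sequenced in 28 libraries, with a stranded kit per the labels' protocols. The authors deposited whole-number read counts per gene for 54429 genes. HISAT2 2.0.5, StringTie 1.3.3b, featureCounts 1.5.0-p3 and mm10 are named in the submitters' processing notes, and the use of strand in counting is not given in the sources used here. A further 70 columns of single libraries in 10 tables were not used. Symbols matched 54314 genes (99.79%). The 10 genes and the other lists were chosen with earlier results of these data known; list genes were named only when among the 3 of their list with the highest mean CPM, plus Sox9, except Sox5 and Sox6, named after their values were seen. Counts were analysed with edgeR 4.0.16 (R 4.3.3): TMM scaling, a filter of 10 counts in the smallest group and 15 in total, robust quasi-likelihood tests, two-sided, fitted to the libraries compared, in 13 pairs and 4 interactions. The script that fits the models was tested on simulated data. Levels between genes were divided by the union exon length from GENCODE M21. Alternatives were DESeq2 1.42.0, limma-voom (limma 3.58.1), other scalings and filters, 1 fit over all libraries, a replicate block and leaving out each library.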

Additional observations from a re-analysis of the deposited data

Results flagged for a closer look

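Within groups of 4 libraries, the distance of the highest or lowest library from its nearest neighbour was divided by the range of the group, and values over Dixon's critical value at the 95% level were taken up. Chance gives about 1 in 20 groups. Normoxic osteoblast replicate 4 accounts for 7 of the 9 cases: it was the highest library for Col2a1 (0.989), Acan (0.969), Col11a2 (0.955), Col9a1 (0.977), Col9a2 (0.972) and Hapln1 (0.982), and the lowest for Col11a1 (0.903), at 1449.5 CPM against 1626 to 1645 CPM. The other 2 were Col11a1 in normoxic proliferating replicate 4 (0.891), at 6.79 CPM against 1.78 to 2.32 CPM, and Hapln1 in normoxic smooth muscle replicate 3 (0.839), at 0.667 CPM against 1.21 to 1.31 CPM.

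The oxygen response differed between cultures by an edgeR interaction term in 10 cases. Some of these calls were lost in other fits, and some come from genes that passed the low-count filter through 1 group alone, as given above. For osteoblast against proliferating cells 0 of 8 genes were called, where 28.9% of all genes were higher and 25.3% lower. Relative to proliferating cells, the chondrocyte response was -3.24 for Acan, -4.98 for Col11a2 and -5.30 for Hapln1 on the log2 scale, 3 of 9 genes tested, where 21.9% of all genes were lower. The smooth muscle response was -5.97 for Col2a1, -3.53 for Acan, -7.89 for Col11a1 and -10.16 for Hapln1, 4 of 7 genes tested, where 35.5% of all genes were lower. The hypoxic smooth muscle libraries hold 11.6% to 13.3% mitochondrial ribosomal RNA. Relative to osteoblast cultures, the chondrocyte response was -2.74 for Acan, 0.59 for Col11a1 and -3.34 for Matn3, 3 of 9 genes tested, where 20.1% of all genes were lower and 17.7% higher.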

How the results depend on the processing

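Of 2072 alternative fits to single genes, 1945 kept their side of the threshold, 1919 of them with the same sign, 69 lost a call, 50 gained one and 8 changed sign with a call in at least 1 of the fits. The other 26 of the 1945 changed sign with no call in either fit, among them Col9a2 in osteoblast cultures by oxygen without normoxic replicate 4 (-1.40 to 0.52) and Col11a1 in proliferating cells by oxygen without normoxic replicate 4 (-0.16 to 0.45). The number of genes called moved by over 1.5 times as follows, and the cause was not tested. In osteoblast against proliferating cells at 21% O2, DESeq2 called 2 and gave no adjusted p for the other 5, which are no lost calls. A single fit over all libraries called 3 in normoxic smooth muscle against proliferating cells, 1 in proliferating cells by oxygen, 3 in osteoblast and 3 in smooth muscle cultures by oxygen, 4 in chondrocyte against osteoblast at 0.5% O2 and 2 in the smooth muscle interaction. In hypoxic smooth muscle against proliferating cells, library size alone gave 3 and no filter 2. In chondrocyte cultures by oxygen limma-voom gave 4, and leaving out 1 library gave 2 to 9. In osteoblast cultures by oxygen limma-voom gave 2, and leaving out 1 library gave 1 to 4. In the chondrocyte-proliferating interaction DESeq2 gave 7 and limma-voom 1, with 1 to 4 on leaving out 1 library. In the osteoblast-proliferating interaction library size alone, a mean of 10 counts and limma-voom gave 1 each, with 0 to 2 on leaving out 1 library. In the chondrocyte-osteoblast interaction leaving out 1 library gave 2 to 8.

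Changes of sign with a call were Col11a1 in hypoxic smooth muscle against proliferating cells (-0.74, library size alone), and, without normoxic osteoblast replicate 4, Col2a1 (0.86) and Hapln1 (0.94) in osteoblast cultures by oxygen and Acan (0.33) in the osteoblast-proliferating interaction. Over all libraries left out in turn these 3 ranged from -2.02 to 0.86, from -1.32 to 0.94 and from -0.67 to 0.33. Replicate numbers did not pair the libraries: correlations of same-number residuals lay between -0.26 and 0.107. With a replicate block, 5 genes, Acan (1.87) among them, were called in osteoblast cultures by oxygen and 1 in the osteoblast-proliferating interaction, and Col11a1 in proliferating cells by oxygen (0.47) and Col2a1 (0.87), Col9a2 (0.50) and Hapln1 (0.93) in osteoblast cultures changed sign with a call. Hypoxic groups have no replicate 4, so in a pair by oxygen the block gives normoxic replicate 4 a term of its own. In osteoblast cultures by oxygen these estimates nearly repeat those without that library and are no separate support. Depth limits Matn1, Matn3 and Col9a3, with at most 358 counts in a group. Scaling by library size alone moved the share of higher genes among all those called by over 10 points in 10 comparisons, most in hypoxic against normoxic smooth muscle (46.8% to 15.6%, median of all genes -0.12 to -1.49), hypoxic smooth muscle against proliferating cells (48.3% to 15%) and the smooth muscle interaction (49.6% to 16.6%); in chondrocyte cultures by oxygen it went from 46.9% to 31.8%.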
